A study of Sus scrofa domesticus with 12 samples.

Results

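Integrins, cadherins, claudins and tetraspanins, the membrane proteins that hold cells to matrix and to each other, were followed in pig muscle 12 weeks after volumetric muscle loss (VML), the surgical removal of a piece of muscle too large to regenerate. Members were taken by gene symbol: the numbered or lettered integrin alpha and beta subunits, the numbered cadherins, the claudins, the TSPAN-named tetraspanins and the junctional adhesion molecules JAM2 and JAM3. The table of 11506 genes held 67 of them, and 40 passed the minimum of 1 TPM (a length-corrected measure of a transcript's share of its library) in every library of at least 1 condition. RNA from whole tissue of the peroneus tertius, the main dorsiflexor of the ankle, was measured in 12 limbs of 11 female Yorkshire Cross pigs that were young adults at harvest.

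Surgery, injury or sham, was bilateral. In the 2 sham-operated limbs the muscle was exposed and isolated and nothing was cut away. In the other 10 limbs a block of the middle of the muscle had been excised: 2 limbs were left non-repaired, 2 were filled with a hyaluronic acid hydrogel that carries no cell-binding motif (Hya-repaired), and 6 received an acellular porcine extracellular matrix scaffold (ECM-repaired). The sample labels give all 6 scaffold limbs the name ECM-SIS, whereas the study describes both small intestinal submucosa and urinary bladder matrix scaffolds. Its sequencing figure counts equal numbers of samples with each scaffold, and the labels do not tell them apart. The 6 limbs were therefore kept as 1 group of scaffold repair, and every ECM-repaired comparison may pool 2 materials. Pig 017 gave limbs to 2 conditions, 1 left non-repaired and 1 Hya-repaired, and those limbs are not independent animals.

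Integrins are pairs of an alpha and a beta subunit. The alpha subunit largely sets the ligand: alpha subunits 1, 2, 10 and 11 bind collagens, alpha 6 binds laminins, alpha 5 binds fibronectin, alpha V and alpha 8 bind ligands with the tripeptide RGD, and alpha L with the beta 2 subunit is found on leukocytes. Cadherins join like cells through calcium-dependent contacts tied to actin by catenins, claudins seal or open tight junctions, and tetraspanins organise integrins, proteases and other receptors into patches of membrane. In muscle, M-cadherin (CDH15) is known from myogenic cells, VE-cadherin (CDH5) and CLDN5 from endothelium, and cadherin 11 (CDH11) from fibroblast-like cells.

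The named genes of the table held 71.5% to 82.7% of all TPM per library, and depth per library is unknown because TPM keep no read counts, so the number of limbs limits the precision. Defining markers of muscle fibers were abundant in sham limbs (summed level 128705 to 134960 TPM over 10 markers) and lower in all injured limbs (9624 to 63320 TPM), where 8 of the 10 markers passed the test as lower. Fibroblast markers summed to 542 to 773 TPM in sham limbs and 16841 to 42304 TPM in injured limbs, leukocyte markers to 11.2 to 15.8 and 89.2 to 290.2 TPM, and macrophage markers to 31.6 to 50.1 and 618 to 1621 TPM. In these whole-tissue libraries fewer cells of a type and less RNA per cell cannot be told apart.

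Of the 40 members tested, 20 were higher and 4 were lower in VML-injured than in sham muscle by limma on log2(TPM + 0.5), with adjusted p-values under 0.05 (Benjamini-Hochberg over the 8782 genes tested, and the 3 injured conditions weighted equally). Among all genes tested, 49.4% were higher and 7.66% were lower, so the share of members that were higher was close to the background. The median log2 fold change of the members was 1.05, beside 0.73 over all genes. That general shift disappeared when libraries were rescaled by trimmed means (median 0.01 over all genes); on that scale 17 members were higher and 10 lower, beside 29.1% and 28.0% of all genes. All 17 members higher after rescaling were among the 20, all 4 lower members stayed lower, and no call turned. All 10 injured limbs lay above both sham limbs for 20 of the 40 members (49.8% of all genes) and below both for 4 members (8.52% of all genes). As a filter caveat, 8 of the 40 members were under 1 TPM in both sham limbs and entered the test through an injured group. Among them were ITGA11, ITGAL, CDH2, CLDN4, CLDN10 and TSPAN2.

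**Figure D1:**
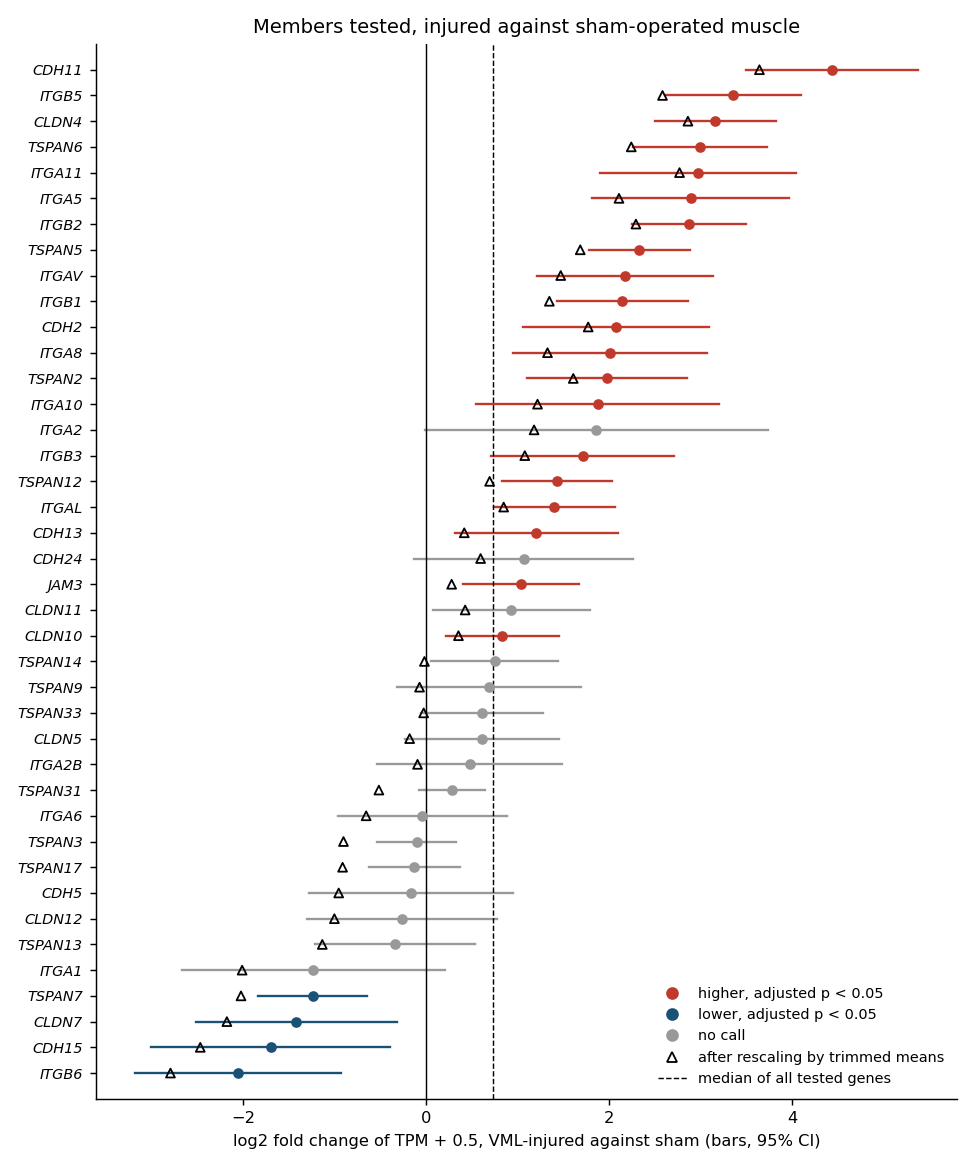
Log2 fold change of TPM + 0.5 in VML-injured against sham muscle for the 40 members tested, with 95% confidence intervals, the rescaled value as an open triangle and the median of all tested genes as a dashed line at 0.73. The 20 members called higher run up to CDH11 at 4.44, and the 4 called lower reach ITGB6 at -2.06; CDH13, CLDN10 and JAM3 were not called after rescaling.

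Integrins were the largest part of the tested members. Of 15 tested, 10 were higher and 1 was lower, and the median log2 difference was 1.87. The same 10 were higher after rescaling, and 2 were then lower. Among all genes tested 49.4% were higher and 7.66% lower, and 29.1% and 28.0% after rescaling. These all-gene shares apply to each class of members below.

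The beta 1 subunit ITGB1, which pairs with collagen-, laminin- and fibronectin-binding alpha subunits alike, was the most abundant integrin transcript in injured muscle on the TPM scale. It was at 56.8 and 67.2 TPM in the sham limbs, 303 and 425 TPM in the non-repaired limbs, 329 and 141 TPM in the Hya-repaired limbs, and 207 to 408 TPM (median 266) in the ECM-repaired limbs. Every injured limb lay above both sham limbs, and the Hya-repaired limb of pig 017 was the lowest of the 10. On the log2 scale limma gave 2.14 ± 0.33 (SE; adjusted p = 0.000169), a 4.42-fold difference on the fitted scale, and 1.35 after rescaling.

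Among the fibronectin- and RGD-binding subunits, 5 of 7 tested were higher, 1 was lower and 1 did not pass. ITGA5, the alpha subunit of the classical fibronectin receptor, was at 9.81 and 34.8 TPM in sham muscle, 147 TPM in both non-repaired limbs, 255 and 70.7 TPM in Hya-repaired limbs and 94.1 to 215 TPM (median 137) in ECM-repaired limbs. The groups did not overlap, although the sham limbs themselves differed widely. By limma the difference was 2.89 ± 0.50 on the log2 scale (adjusted p = 0.000401).

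ITGB5, a partner of alpha V best known for binding vitronectin, rose from 7.30 and 13.2 TPM in sham limbs to 151 and 88.7 TPM in non-repaired, 153 and 53.6 TPM in Hya-repaired and 101 to 129.8 TPM (median 109.6) in ECM-repaired limbs. The 6 ECM-repaired limbs were close together, and all injured limbs were above both shams. Its log2 difference of 3.36 ± 0.34 (limma, adjusted p = 8.66e-06) was the largest among the integrins tested. ITGAV itself was at 2.63 and 2.12 TPM in sham limbs, 17.6 and 16.9 TPM in non-repaired, 13.9 and 5.67 TPM in Hya-repaired and 6.80 to 24.7 TPM (median 12.8) in ECM-repaired limbs. Again no injured limb reached down to a sham limb, at a log2 difference of 2.17 ± 0.44 (limma, adjusted p = 0.00133).

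ITGA8, a beta 1 partner that binds nephronectin, was at 1.43 and 4.28 TPM in sham and 5.85 to 24.2 TPM in injured limbs (log2 fold change 2.01, limma adjusted p = 0.00412). ITGB3, the beta subunit of the platelet fibrinogen receptor and a further partner of alpha V, was at 1.00 and 1.95 TPM against 3.04 to 14.1 TPM (log2 fold change 1.71, limma adjusted p = 0.00756). Neither gene overlapped between sham and injured limbs. The calls of both were lost without the sham limb of pig 025 (limma adjusted p = 0.113 for ITGA8 and 0.117 for ITGB3). ITGA2B, the platelet alpha subunit, had a log2 fold change of 0.48 with an adjusted p of 0.395 by limma, and PPBP, the platelet marker in the table, stayed under 1 TPM in every library.

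ITGB6, a partner of alpha V known mainly from epithelia and from activation of latent TGF-beta, went the other way. It is singled out after its values were seen: it was at 9.0 and 5.68 TPM in sham limbs, 1.81 and 1.56 TPM in non-repaired limbs, 0.410 and 3.33 TPM in Hya-repaired limbs and 0.404 to 2.26 TPM (median 1.12) in ECM-repaired limbs. No injured limb reached the lower sham limb. By limma it fell by 2.06 ± 0.52 on the log2 scale (adjusted p = 0.00521) and the call was lost without the sham limb of pig 025 (0.0848). Per 1000 TPM of summed muscle fiber markers, ITGB6 was 0.0441 and 0.0667 TPM in sham limbs and 0.0268 to 0.0601 TPM in injured limbs. The groups overlapped on that ratio. No ratio to epithelial markers was computed, and which cells carried ITGB6 was not tested. Of the summed TPM of the alpha V partners ITGB3, ITGB5, ITGB6 and ITGB8, ITGB5 held 39.4% to 61.8% in sham and 87.4% to 96.4% in injured limbs, and ITGB6 held 26.5% to 48.6% and 0.259% to 5.51%.

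The 4 collagen-binding alpha subunits did not move together. ITGA11, a collagen receptor of fibroblasts, was nearly absent from sham muscle, at 0.0566 and 0.106 TPM, and was at 5.0 and 5.82 TPM in non-repaired, 4.83 and 1.49 TPM in Hya-repaired and 1.92 to 9.15 TPM (median 5.39) in ECM-repaired limbs. By limma its log2 fold change reached 2.97 ± 0.49 (adjusted p = 0.000308), a value that understates the difference because the added 0.5 exceeds both sham levels. ITGA10, best known from cartilage, was at 1.14 and 2.59 TPM in sham limbs, 6.09 and 16.6 TPM in non-repaired, 12.9 and 3.69 TPM in Hya-repaired and 3.40 to 16.7 TPM (median 5.50) in ECM-repaired limbs. All injured limbs were above both shams (log2 fold change 1.87 ± 0.61, limma adjusted p = 0.0205), with the call lost without the sham limb of pig 025 (0.213).

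ITGA2, a collagen receptor of platelets and epithelia, was at 1.15 and 4.09 TPM in sham limbs, 25.4 and 18.3 TPM in non-repaired, 10.7 and 1.92 TPM in Hya-repaired and 1.49 to 33.9 TPM (median 8.28) in ECM-repaired limbs. The injured limbs spanned and overlapped the sham range, and the log2 fold change of 1.86 ± 0.86 did not pass (limma adjusted p = 0.0823). ITGA1, the collagen IV and collagen I receptor of smooth muscle and other mesenchymal cells, was at 12.2 and 16.3 TPM in sham limbs, 13.3 and 9.75 TPM in non-repaired, 2.37 and 4.84 TPM in Hya-repaired and 1.39 to 19.2 TPM (median 4.56) in ECM-repaired limbs. It lay below both shams in 8 of 10 injured limbs, and the ECM-repaired limb of pig 024 was above them. Its log2 fold change of -1.23 ± 0.66 did not pass as deposited (limma adjusted p = 0.127) but did after rescaling, at -2.01 (adjusted p = 0.0135).

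**Figure D2:**
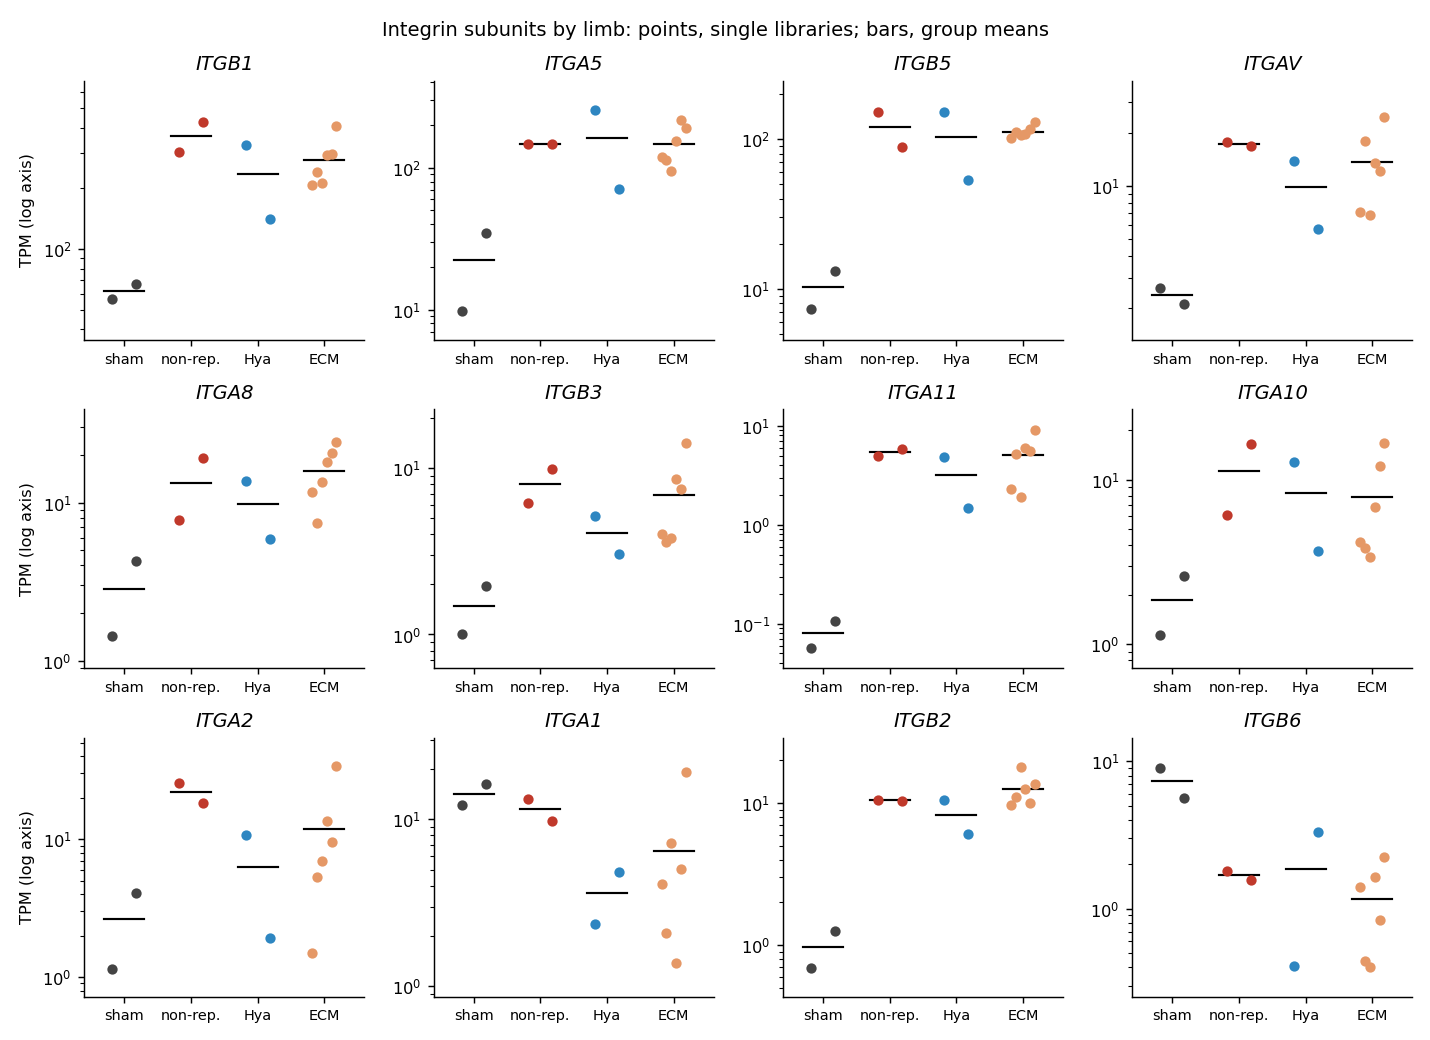
TPM on log axes for 12 integrin subunits in 2 sham limbs, 2 non-repaired limbs, 2 limbs with Hya and 6 with ECM, with points for libraries and bars for group means. ITGB1, ITGA5, ITGB5, ITGAV, ITGA8, ITGB3, ITGA11, ITGA10 and ITGB2 were above both shams in all 10 injured limbs, ITGB6 was below both, and ITGA2 and ITGA1 overlapped, ITGA1 being called lower after rescaling alone.

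Within a library, the mixture of alpha subunits can be read free of the scaling between libraries. Of the summed TPM of the 10 alpha subunits in the table, the fibronectin- and RGD-binding subunits held 47.4% and 62.3% in the sham limbs and 73.6% to 90.0% in the injured limbs, ITGA5 alone accounting for 31.9% and 51.1% against 57.8% to 79.6%. Collagen-binding subunits held 33.9% to 47.3% in sham and 7.79% to 24% in injured limbs. Neither share overlapped between the groups. ITGA1 supplied 70.6% to 83.9% of the collagen-binding total in sham muscle and 4.98% to 40.5% in injured muscle, whereas ITGA11 supplied 0.389% to 0.460% and 9.85% to 31.8%. The ratio of ITGB1 to the alpha sum was 0.988 to 1.85 in sham and 1.03 to 1.76 in injured limbs, and overlapped. Shares sum to a whole, so a larger share of ITGA5 lowers the others, and the alpha subunits that the table does not list by name are not counted.

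**Figure D3:**
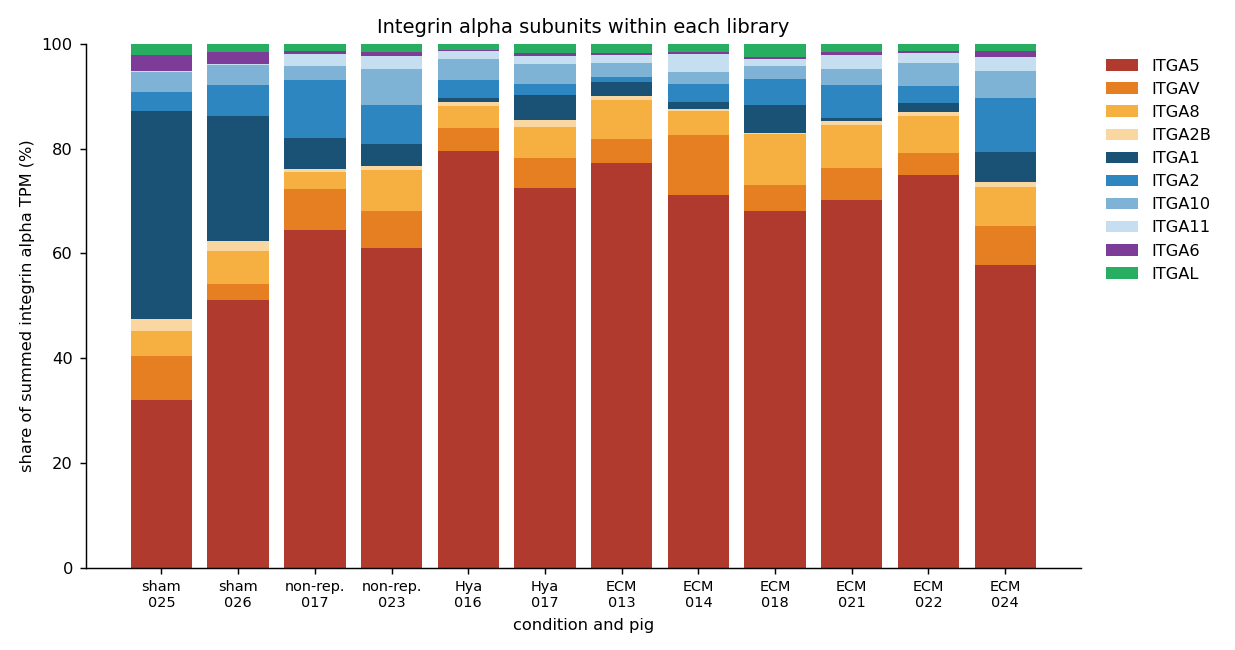
Share of the summed integrin alpha TPM (percent) held by each of 10 alpha subunits in each library, ordered by condition and pig. ITGA5 takes 57.8% to 79.6% of the column in injured limbs, and the ITGA1 block, 24% to 39.7% in sham limbs, shrinks to 0.632% to 5.84%.

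Of the laminin-binding subunits, ITGA6 was tested, and ITGA3, ITGA7 (the main laminin receptor alpha subunit of muscle fibers) and ITGB4 were not analysed here. ITGA6 was at 0.956 and 1.58 TPM in sham limbs, 1.41 and 2.10 TPM in non-repaired, 0.958 and 0.702 TPM in Hya-repaired and 0.452 to 3.25 TPM (median 1.03) in ECM-repaired limbs. The injured limbs lay on both sides of the shams, at a log2 difference of -0.04 (95% interval -0.97 to 0.88, limma adjusted p = 0.941). As a share of alpha TPM it was 2.31% and 3.11% in sham and 0.299% to 0.988% in injured limbs.

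The leukocyte integrins tested, ITGB2 and ITGAL, were both higher. ITGB2, the beta subunit shared by the leukocyte integrins, was at 0.694 and 1.25 TPM in sham limbs, 10.6 and 10.3 TPM in non-repaired, 10.5 and 6.06 TPM in Hya-repaired and 9.73 to 18 TPM (median 11.8) in ECM-repaired limbs. No injured limb came near the sham level, and limma gave a log2 difference of 2.87 ± 0.29 (adjusted p = 7.75e-06). All 6 leukocyte markers (PTPRC, CD53, LCP1, CORO1A, LAPTM5 and CD48) were higher as well. Per 1000 TPM of those markers ITGB2 was 61.8 and 79.5 TPM in sham and 61.9 to 75 TPM in injured limbs, so the injured limbs all fell between the shams.

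ITGAL, the alpha subunit of the lymphocyte function-associated antigen, was at 0.655 and 0.994 TPM in sham limbs, 3.01 and 3.54 TPM in non-repaired, 3.62 and 1.62 TPM in Hya-repaired and 2.45 to 4.67 TPM (median 3.29) in ECM-repaired limbs. All injured limbs were above both shams (log2 fold change 1.40 ± 0.31, limma adjusted p = 0.00209), and the call was narrowly lost without the sham limb of pig 025 (0.0516). Against the same leukocyte markers ITGAL moved in the opposite direction to its level: it was 58.3 and 63.0 TPM per 1000 TPM of markers in sham limbs and 11.7 to 25.8 TPM in injured limbs. Its values in sham limbs were under 1 TPM, where this ratio is least precise.

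The table lists 5 more members under gene numbers, matched through the RefSeq annotation. ITGA9, a beta 1 partner that binds tenascin, and ITGAM, the alpha subunit of the macrophage and neutrophil receptor Mac-1, were higher, with log2 fold changes of 1.48 (limma adjusted p = 0.00619) and 1.10 (0.0241). ITGAM stayed low in TPM, at 0.354 and 0.466 in sham limbs and 0.771 to 4.58 in injured limbs, without overlap. It was under 1 TPM in both sham limbs and entered the test through the non-repaired and ECM-repaired groups. ITGAX, ITGAD and CDH4 were below the filter.

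**Figure D4:**
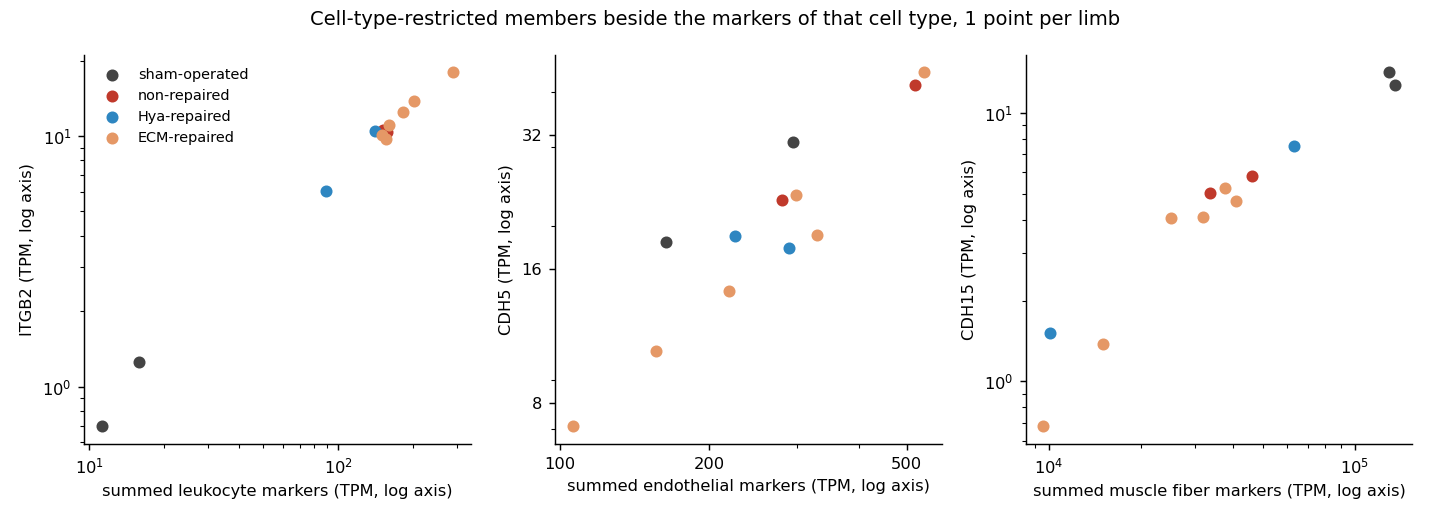
TPM of ITGB2, CDH5 and CDH15 against the summed TPM of leukocyte, endothelial and muscle fiber markers, on log axes, 1 point per limb colored by condition. ITGB2 and its markers were both higher in all 10 injured limbs, CDH15 and its markers both lower, and endothelial markers spread from 106 to 542 TPM in injured limbs around the sham limbs at 163 and 296 TPM.

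Of 6 cadherins tested, 3 were higher and 1 was lower (49.4% and 7.66% of all genes). After rescaling 2 were higher and 2 lower (29.1% and 28.0% of all genes). CDH11 had the largest log2 fold change of any member. It was at 32.4 and 77.4 TPM in sham limbs, 909 and 1929 TPM in non-repaired, 1196 and 465 TPM in Hya-repaired and 949 to 1999 TPM (median 1275) in ECM-repaired limbs. The lowest injured limb, from pig 017 with Hya, was still well above both shams, and limma put the log2 difference at 4.44 ± 0.43 (adjusted p = 6.49e-06), a 21.7-fold difference on the fitted scale. CDH11 made up 39.4% and 50.6% of all cadherin TPM in sham limbs and 89.5% to 96.0% in injured limbs. The 5 fibroblast markers tested were higher too. Per 1000 TPM of the summed fibroblast markers CDH11 was 59.7 and 100 TPM in sham limbs and 26.4 to 61.9 TPM in injured limbs. Most of that sum was 1 transcript, COL1A2. It held 279.6 and 483 TPM of the 542 and 773 TPM in sham limbs. In injured limbs it was at 13905 to 35728 TPM, beside sums of 16841 to 42304 TPM. The ratio is therefore not a measure of CDH11 per fibroblast. On that ratio 8 injured limbs lay below both shams and 0 above both. The part of these markers in the CDH11 difference was not tested.

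CDH2 (N-cadherin), which joins mesenchymal, neural and myogenic cells, was at 0.0909 and 0.347 TPM in sham limbs, 3.24 and 4.68 TPM in non-repaired, 2.44 and 0.646 TPM in Hya-repaired and 1.13 to 4.62 TPM (median 3.22) in ECM-repaired limbs. No injured limb was as low as a sham limb (log2 fold change 2.08 ± 0.47, limma adjusted p = 0.0026), although the call was lost without the sham limb of pig 025 (0.0535). CDH13, a cadherin anchored by lipid that binds adiponectin, was at 17.5 and 27.6 TPM in sham limbs, 58.5 and 69.1 TPM in non-repaired, 63.8 and 23.8 TPM in Hya-repaired and 33.0 to 108 TPM (median 53.4) in ECM-repaired limbs. It was above both shams in 9 of 10 injured limbs (log2 fold change 1.21 ± 0.41, limma adjusted p = 0.0247), but its log2 fold change after rescaling was 0.42 and did not pass (0.255), and the call was also lost without the sham limb of pig 025 (0.236).

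M-cadherin CDH15 was the cadherin that fell. It was at 12.7 and 14.2 TPM in sham limbs, 5.04 and 5.83 TPM in non-repaired, 1.52 and 7.54 TPM in Hya-repaired and 0.680 to 5.27 TPM (median 4.07) in ECM-repaired limbs. The highest injured limb was below the lower sham limb, and by limma it fell by 1.70 ± 0.60 on the log2 scale (adjusted p = 0.0295). The call was lost when any of 4 libraries was left out: either sham limb (0.13 without pig 025, 0.14 without pig 026), the non-repaired limb of pig 017 (0.0519) or the Hya-repaired limb of pig 016 (0.0605). Per 1000 TPM of muscle fiber markers CDH15 was 0.0944 and 0.110 TPM in sham and 0.0706 to 0.161 TPM in injured limbs, which overlapped. Of the 2 satellite cell markers tested, MYOD1 was lower, and MYF5, at 1.29 and 2.92 TPM in sham and 0.349 to 2.57 TPM in injured limbs, overlapped and did not pass as deposited (limma adjusted p = 0.148), passing as lower after rescaling. PAX7 and MYOG were not analysed here.

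VE-cadherin CDH5 was at 18.4 and 30.9 TPM in sham limbs, 22.8 and 41.5 TPM in non-repaired, 17.9 and 19.0 TPM in Hya-repaired and 7.09 to 44.2 TPM (median 16.7) in ECM-repaired limbs. The injured limbs spread around the shams, at a log2 difference of -0.17 as deposited (limma, adjusted p = 0.795) and -0.96 after rescaling, where it passed as lower (0.0487). None of the 6 endothelial markers tested passed the test. Per 1000 TPM of those markers CDH5 was 104 and 113 TPM in sham limbs and 57.9 to 84.3 TPM in injured limbs, without overlap. The other endothelial member, CLDN5, was not lower on this ratio, as given below.

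Among 6 claudins tested, 2 were higher and 1 was lower (49.4% and 7.66% of all genes). After rescaling 1 was higher and 2 were lower (29.1% and 28.0% of all genes). The 2 called higher, CLDN4 and CLDN10, were under 1 TPM in both sham limbs and entered the test through an injured group. CLDN4, a claudin of epithelial tight junctions, was at 0.187 and 0.152 TPM in sham limbs, 6.39 and 4.78 TPM in non-repaired, 6.02 and 3.66 TPM in Hya-repaired and 3.77 to 8.60 TPM (median 6.78) in ECM-repaired limbs. Sham and injured limbs were far apart and the injured limbs close together, at a log2 difference of 3.16 ± 0.31 (limma, adjusted p = 6.27e-06) that was called under each scaling. Of the epithelial markers beside it, EPCAM was under 1 TPM in every library, and ESRP1 was the only 1 of 3 tested to pass as higher. The epithelial marker sum was 11.1 to 12 TPM in sham and 31.0 to 94.3 TPM in injured limbs, and CLDN4 per 1000 TPM of it was 12.6 and 16.8 TPM in sham limbs and 39.96 to 172 TPM in injured limbs.

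CLDN7, another claudin best known from epithelia, was at 9.93 and 9.73 TPM in sham limbs, 3.65 and 4.24 TPM in non-repaired, 1.58 and 8.20 TPM in Hya-repaired and 1.06 to 4.83 TPM (median 2.90) in ECM-repaired limbs. All injured limbs were below both shams (log2 fold change -1.42 ± 0.51, limma adjusted p = 0.0298). The call was lost without either sham limb (0.148 and 0.12), without the non-repaired limb of 017 (0.0523) or without the Hya-repaired limb of pig 016 (0.0501). Per 1000 TPM of muscle fiber markers it was 0.0736 and 0.0756 TPM in sham limbs and higher in all injured limbs, at 0.0824 to 0.157 TPM. No ratio of CLDN7 to the epithelial markers was computed, and which cells carried it was not tested.

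CLDN5, the main endothelial claudin, was the most abundant claudin, at 15.6 and 32.4 TPM in sham limbs, 29.0 and 55.2 TPM in non-repaired, 29.8 and 27.8 TPM in Hya-repaired and 21.3 to 66.8 TPM (median 34.3) in ECM-repaired limbs. The groups overlapped, and the log2 fold change of 0.61 did not pass (limma adjusted p = 0.196). Per 1000 TPM of endothelial markers CLDN5 was 95.4 and 110 TPM in sham limbs and 98.8 to 231 TPM in injured limbs. On that ratio 6 injured limbs lay above both shams and 0 below both, unlike CDH5. CLDN10, a claudin that forms ion pores, was at 0.496 and 0.663 TPM in sham limbs, 1.85 and 1.14 TPM in non-repaired, 1.09 and 1.28 TPM in Hya-repaired and 1.13 to 2.33 TPM (median 1.55) in ECM-repaired limbs. Its groups did not overlap and it passed as higher (log2 fold change 0.83 ± 0.28, limma adjusted p = 0.0245). The CLDN10 call was lost after rescaling (0.299), without either sham limb (0.19 and 0.0801) or when the limb of pig 017 left unrepaired was dropped (0.0586). CLDN11 (0.93) and CLDN12 (-0.27 on the log2 scale) did not pass as deposited, and CLDN12 passed as lower after rescaling.

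JAM3, an adhesion molecule of endothelial and other junctions, was at 5.31 and 8.24 TPM in sham limbs, 15.5 and 16.5 TPM in non-repaired, 16.3 and 10.6 TPM in Hya-repaired and 9.80 to 20.7 TPM (median 12.7) in ECM-repaired limbs. Every injured limb was above both shams, at a log2 difference of 1.04 ± 0.29 (limma, adjusted p = 0.00972) that was 0.28 and no longer passed after rescaling (0.167). The call was also lost without the sham limb of pig 025 (0.163). JAM2 was not analysed here.

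Of 12 tetraspanins tested, 4 were higher, 1 was lower and 7 did not pass, beside 49.4% higher and 7.66% lower of all genes. After rescaling 4 were higher and 4 lower (29.1% and 28.0% of all genes). TSPAN6 was at 4.20 and 7.60 TPM in sham limbs, 52.3 and 57.8 TPM in non-repaired, 51.8 and 25.6 TPM in Hya-repaired and 42.3 to 98.5 TPM (median 53.4) in ECM-repaired limbs. Injured and sham limbs were separate (log2 fold change 2.99 ± 0.34, limma adjusted p = 1.69e-05), and TSPAN6 went from 1.22% and 2.14% of summed tetraspanin TPM in sham limbs to 7.13% to 26% in injured limbs.

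TSPAN5 belongs, with TSPAN14, TSPAN17 and TSPAN33, to the tetraspanins that escort the protease ADAM10 to the cell surface. It was at 1.22 and 1.83 TPM in sham limbs, 9.68 and 11.8 TPM in non-repaired, 10.1 and 6.99 TPM in Hya-repaired and 7.84 to 13.5 TPM (median 9.45) in ECM-repaired limbs. By limma its log2 difference was 2.33 ± 0.26 (adjusted p = 1.37e-05), with no overlap. The other members of that set did not pass as deposited: log2 fold changes were 0.75 for TSPAN14, -0.13 for TSPAN17 and 0.62 for TSPAN33, and TSPAN17 passed as lower after rescaling (-0.91).

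TSPAN12, a co-receptor for Norrin on endothelial cells, was at 4.21 and 4.20 TPM in sham limbs, 14 and 20.05 TPM in non-repaired, 9.56 and 8.42 TPM in Hya-repaired and 8.87 to 20.1 TPM (median 11.5) in ECM-repaired limbs. All injured limbs were above both shams (log2 fold change 1.43 ± 0.28, limma adjusted p = 0.000929). TSPAN2 passed as higher as well, from 0.188 and 0.455 TPM in sham limbs to 1.43 to 5.54 TPM in injured limbs (log2 fold change 1.98, limma adjusted p = 0.00129).

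TSPAN3 was the most abundant tetraspanin, at 189 and 171 TPM in sham limbs, 198 and 169 TPM in non-repaired, 155 and 160.2 TPM in Hya-repaired and 139 to 205 TPM (median 159) in ECM-repaired limbs. These levels overlapped, at a log2 difference of -0.10 as deposited (limma, adjusted p = 0.677), and after rescaling it passed as lower (-0.90, adjusted p = 0.00785). TSPAN31 as deposited was above both shams in all 10 injured limbs, but only slightly, at 62.9 and 63.8 TPM against 67.5 to 84.1 TPM (log2 fold change 0.28, limma adjusted p = 0.166). That order was turned by rescaling, which put all injured limbs below both shams. The trimmed-mean factors that multiply the TPM were 1.82 and 1.48 in the sham limbs and 0.647 to 1.22 in injured limbs. TSPAN7, described here because it was the tetraspanin seen to fall, was at 18.5 and 23.5 TPM in sham limbs, 8.68 and 9.31 TPM in non-repaired, 7.39 and 12.3 TPM in Hya-repaired and 5.44 to 10.5 TPM (median 6.72) in ECM-repaired limbs. No injured limb reached a sham limb, at a log2 difference of -1.24 ± 0.27 as deposited (limma, adjusted p = 0.00221) and -2.02 after rescaling. Per 1000 TPM of muscle fiber markers TSPAN7 was higher in injured limbs, at 0.194 to 0.733 TPM against 0.137 and 0.182 TPM. Which cells carried TSPAN7 was not tested.

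**Figure D5:**
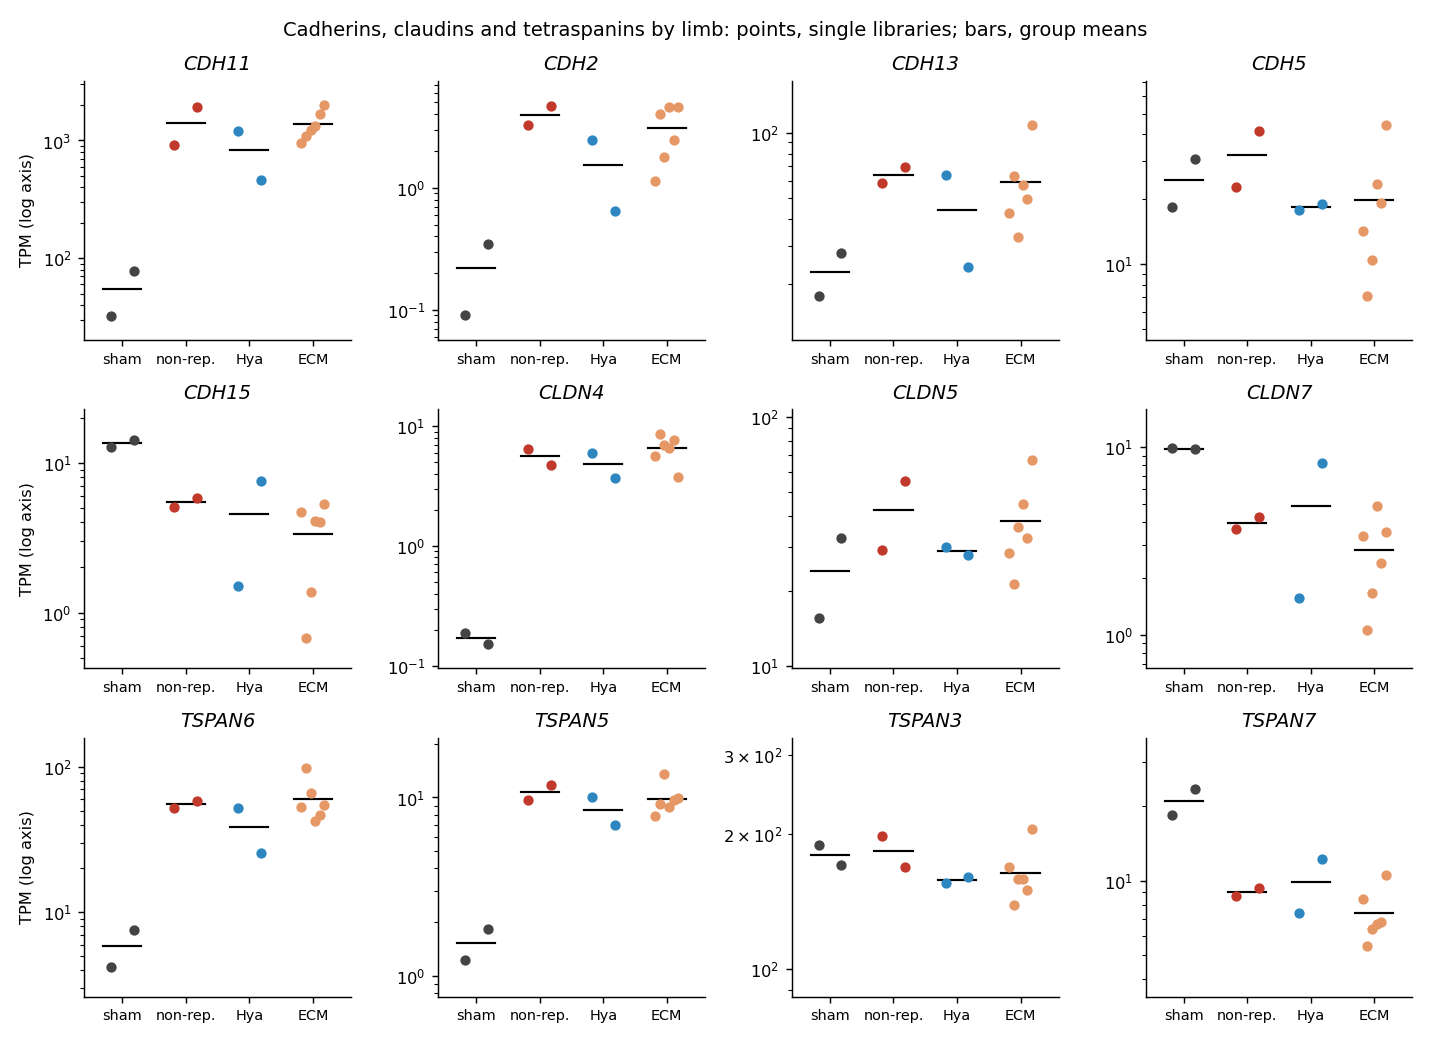
TPM on log axes for 5 cadherins, 3 claudins and 4 tetraspanins by condition, with points for libraries and bars for group means. CDH11, CDH2, CLDN4, TSPAN6 and TSPAN5 were above both shams in all 10 injured limbs, CDH15, CLDN7 and TSPAN7 were below both, and CDH5, CLDN5 and TSPAN3 overlapped, CDH5 and TSPAN3 being called lower only after rescaling.

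Genes that work with these receptors were read from lists of partners. Of 53 tested, 35 were higher and 2 lower in VML-injured muscle (49.4% and 7.66% of all genes), with a median log2 fold change of 1.49. After rescaling 27 were higher and 7 lower (29.1% and 28.0% of all genes). The same all-gene shares apply to each list of partners. Of 18 integrin ligands and counter-receptors tested, 15 were higher and 0 lower, and 14 and 0 after rescaling. Fibronectin (FN1) was at 36.9 and 83 TPM in sham and 1057 to 4146 TPM in injured limbs (log2 fold change 5.41, limma adjusted p = 1.64e-06). Periostin (POSTN), a matrix ligand of alpha V integrins, was at 7.10 and 15.7 TPM against 606 to 3391 TPM (log2 fold change 7.33). Collagen I (COL1A2) was at 279.6 and 483 TPM against 13905 to 35728 TPM (log2 fold change 6.08), and it is also one of the fibroblast markers.

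Of 14 integrin adapters tested, which tie the cytoplasmic tails to actin, 7 were higher and 1 lower, shares close to those of all genes, and 5 were higher and 4 lower after rescaling. Talin 1 (TLN1) had a log2 fold change of 1.61, alpha-parvin (PARVA) of 2.61 and the leukocyte kindlin FERMT3 of 1.98, all called higher by limma, while vinculin (VCL) was at 68.4 and 78.4 TPM in sham and 37.0 to 110.4 TPM in injured limbs (log2 fold change 0.04, limma adjusted p = 0.927) and passed as lower after rescaling. The adapter that fell, named after its value was seen, was TLN2, the talin of striated muscle, at 4.95 and 4.50 TPM in sham and 0.383 to 2.33 TPM in injured limbs (log2 fold change -1.68, limma adjusted p = 0.00285). Of 6 catenins and cadherin partners, 4 were higher and 1 lower (2 and 2 after rescaling), with log2 fold changes of 1.2 for beta-catenin (CTNNB1), 1.90 for alpha-catenin (CTNNA1) and 1.89 for plakoglobin (JUP). CTNNB1 was not called after rescaling. Among the tight junction proteins, occludin (OCLN) was at 5.26 and 5.65 TPM in sham and 0.218 to 4.49 TPM in injured limbs (log2 fold change -1.19, limma adjusted p = 0.0526), passing as lower after rescaling. TJP1 and LAMA2 were not analysed here.

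The list of tetraspanins that carry CD names and their partners, which include the protease ADAM10, had 9 tested genes. Of these, 8 were higher and 0 lower, beside 49.4% and 7.66% of all genes, and 6 and 0 after rescaling. CD9 and CD81, which associate with beta 1 integrins, had log2 fold changes of 2.66 and 2.68, the leukocyte tetraspanin CD53 of 3.43, and PTGFRN, a partner of CD9 and CD81, of 4.0, all called by limma. CD53 is also one of the leukocyte markers.

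Each injured condition was compared with the same 2 sham limbs, so the comparisons are not independent of each other. In ECM-repaired muscle 21 members were higher and 4 lower (48.0% and 10.0% of all genes), in non-repaired muscle 20 and 2 (45.1% and 1.18%), and in Hya-repaired muscle 13 and 2 (33.9% and 3.76%). Their median log2 fold changes were 0.98, 1.3 and 0.93. After rescaling the counts were 16 and 10 in ECM-repaired (29.5% and 29.4% of all genes), 15 and 6 in non-repaired (22.1% and 20.8%), and 12 and 7 in Hya-repaired muscle (23.4% and 19.1%). CDH11 had log2 fold changes of 4.72 in ECM-repaired, 4.71 in non-repaired and 3.88 in Hya-repaired muscle, and ITGB5 of 3.44, 3.49 and 3.14. CLDN4 was at 3.35, 3.17 and 2.96. These 3 genes passed in each condition and in every alternative that tested them. CLDN4 was under 1 TPM in both sham limbs and entered the test through the injured groups. The filter of 1 TPM in all 12 libraries therefore did not test it. ITGA11, at 3.09, 3.34 and 2.49, also passed in each, but its call in Hya-repaired muscle was lost without the sham limb of pig 025 (limma adjusted p = 0.0582) or the Hya-repaired limb of pig 016 (0.127). ITGB6 was at -2.32, -1.81 and -2.04 and passed in each condition as fitted. Its ECM-repaired call was lost without the sham limb of pig 025 (limma adjusted p = 0.0523). Its non-repaired call was lost when any sham or non-repaired limb was left out (0.0604 to 0.198), and with a pseudocount of 0.1 (0.0745), no filter (0.053) or without pig 017 (0.0531). Its Hya-repaired call was lost without either sham limb (0.171 and 0.0504), with the compared groups alone (0.0674) and when Hya limb 016 was left out, where the log2 fold change was -1.0 (0.368).

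ITGA2 had log2 fold changes of 1.65 in ECM-repaired (limma adjusted p = 0.128), 3.00 in non-repaired (0.0393) and 0.92 in Hya-repaired muscle (0.517), and these conditions did not pass a test against each other. Its non-repaired call was lost on both rescaled scales (limma adjusted p = 0.0731 and 0.0713), without either sham limb (0.238 and 0.0515), without either non-repaired limb (0.146 and 0.11), without both limbs of pig 017 (0.13) and without the ECM-repaired limb of pig 018 (0.0505) or 022 (0.0559). CDH15 was at -2.06 (limma adjusted p = 0.0131), -1.23 (0.19) and -1.79 (0.0789) in ECM-repaired, non-repaired and Hya-repaired muscle, and the ECM-repaired call was lost without either sham limb (0.0759 and 0.0802).

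Whether repair changed these genes was asked by comparing injured conditions with each other. By limma, 0 of 40 members and 0.0% of all genes passed in ECM-repaired against the injured limbs without ECM, in ECM-repaired or Hya-repaired against non-repaired, or in ECM-repaired against Hya-repaired muscle. At an unadjusted p under 0.05 there were 0 members in each of these comparisons except Hya-repaired against non-repaired, where TSPAN12 was lower (log2 difference -0.87, 95% interval -1.63 to -0.11, limma adjusted p = 0.912). Over all genes, 114, 71, 196 and 206 had an unadjusted p under 0.05 in ECM-repaired against the injured without ECM, ECM-repaired against non-repaired, Hya-repaired against non-repaired and ECM-repaired against Hya-repaired. These designs leave room for sizeable differences. For ITGB1 the log2 difference between ECM-repaired limbs and injured limbs without ECM was -0.05 (95% interval -0.63 to 0.53), for ITGA5 0.01 (-0.87 to 0.88), for CDH11 0.42 (-0.34 to 1.19) and for ITGB2 0.40 (-0.11 to 0.91). The median half-width of the interval over the 40 members was 0.72 in that comparison and 1.11 in Hya-repaired against non-repaired muscle. The 2 Hya-repaired limbs were unlike each other: the limb of pig 017 had the highest muscle fiber marker sum and the lowest fibroblast and leukocyte marker sums of the 10 injured limbs, and the lowest ITGB1, ITGA5, ITGB5, ITGB2, CDH11 and TSPAN6.

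The other 27 members were below the filter. Of these, 15 were under 1 TPM in every library, among them CLDN16, CLDN17 and CLDN18, which are listed at 0 throughout. CDH1 (E-cadherin), the adherens junction cadherin of epithelia, ranged from 0.135 to 5.84 TPM, CDH19 from 0.0476 to 5.23 TPM, ITGB7, a leukocyte beta subunit, from 0.172 to 1.85 TPM and ITGB8 from 0.140 to 1.25 TPM over the 12 libraries.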

How the data were processed

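Total RNA of 12 pig limbs was sequenced from TruSeq libraries. Per the labels and methods, the authors pseudoaligned reads to the pig annotation with kallisto and tested counts with DESeq2, which was not used here. The deposited values are TPM per gene and library (shares of transcripts corrected for length), without counts. The members and gene lists were chosen with earlier results of these data known. Genes with at least 1 TPM in every library of at least 1 condition (8782 of 11506) were tested in 1 fit of all 12 limbs with limma 3.58.1 in R 4.3.3 (trend and robust) on log2(TPM + 0.5), with Benjamini-Hochberg adjustment and a threshold of 0.05. Of the gene names, 21 had turned into dates and were kept in the tests as unnamed genes. Gene numbers were matched to 5 members through RefSeq Sscrofa11.1, and no coordinates were used. P-values measure the spread between limbs.

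Every tested member could be named. Values in each condition were given for preset anchors and, in each class, for the 3 smallest p-values and the highest mean level. Partner genes were named if first or second on their list or among the 2 smallest p-values; exceptions are stated. Alternatives were other scalings, pseudocounts of 0.1 and 1, other filters, another variance model, the compared groups alone, each library left out, and pig 017 left out. The fitting procedure was tested on simulated data.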

Additional observations from a re-analysis of the deposited data

Results flagged for a closer look

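TSPAN12 stood apart in a single limb. In the ECM-repaired limb of pig 024 it was at 20.1 TPM, whereas the other 5 ECM-repaired limbs held 8.87 to 11.9 TPM. The gap to the nearest limb was 0.648 of the range of the group on the log2(TPM + 0.5) scale, above the critical value of 0.625 for 6 samples. All 40 tested members were checked in this way, and chance alone marks about 1 in 20 groups. The same limb had the highest level among injured limbs for several other members, including CDH5, CLDN5 and ITGA1, and the highest endothelial marker sum of the 10 injured limbs, 542 TPM. The check used TPM before rescaling. The trimmed-mean factor that multiplies the TPM of this limb was 0.647, the lowest of the 12 libraries, beside 0.902 to 1.14 in the other ECM-repaired limbs. The parts of this factor and of those markers in the TSPAN12 value were not tested.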

How the results depend on the processing

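Members called in VML-injured, ECM-repaired, non-repaired and Hya-repaired against sham muscle are given in that order. With at least 1 TPM required in all 12 libraries, fewer genes were tested, and 12, 13, 13 and 8 members were higher and 2, 2, 1 and 1 lower (partners: 1 lower). Rescaled by trimmed means, 10, 10, 6 and 7 were lower (partners: 7), and by median of ratios 10, 10, 6 and 8 (partners: 7). Over all 8782 genes tested, 2492, 2600, 1833 and 1752 were lower by median of ratios. The all-gene shares by trimmed means are given above. TSPAN3 in non-repaired muscle turned from 0.03 to -0.96 and -0.97 on the log2 scale on these scales. In non-repaired muscle 1 member was lower with a pseudocount of 0.1, 4 with the compared groups alone and 0 without pig 017; in Hya-repaired muscle 1 was lower with the compared groups alone and 4 without pig 017. The partner count lower was 1 with a pseudocount of 0.1 and 4 with a pseudocount of 1.

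Leaving out 1 library gave 12 to 22, 14 to 23, 12 to 21 and 6 to 18 members higher and 1 to 5, 1 to 6, 0 to 2 and 0 to 4 lower, and 25 to 37 partners higher and 1 to 4 lower. In a group of 2 the remaining library is then assumed to vary like the other groups. Without the sham limb of pig 025 the counts higher fell to 12 (VML-injured), 12 (non-repaired) and 6 (Hya-repaired), and the counts lower to 1, 1, 1 and 0 in the 4 comparisons; without that of pig 026 the counts lower were 2, 2, 0 and 0. Leaving out pig 023 gave 12 higher and 0 lower in non-repaired muscle; without the non-repaired limb of 017, 0 were lower there and 2 in VML-injured muscle. When pig 016 was left out, Hya-repaired muscle had 6 members higher and 0 lower and VML-injured muscle 2 lower; without the Hya-filled limb of pig 017, 4 were lower in Hya-repaired muscle. The partner count lower was 4 without the ECM-repaired limb of pig 024, and 1 without either sham limb, either non-repaired limb, the Hya-repaired limb of pig 016 or the ECM-repaired limb of pig 021 or 022. The causes of these changes were not tested. For the alternatives other than rescaling, the share of all genes called is not given here. These counts therefore do not say whether the members changed more than other genes.

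The 4 comparisons among injured conditions gave 0 members in every alternative run. Leave-one-out means over injured limbs were 13.4% to 15.2% for the collagen-binding, 82.6% to 84.5% for the fibronectin- and RGD-binding, 0.540% to 0.617% for the laminin-binding and 1.44% to 1.59% for the leukocyte alpha share. No paired analysis was possible because the labels give no shared replicate numbers and pig 017 alone gave limbs to 2 conditions.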
